A study of Mus musculus with 20 samples.

Results

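Virma and 9 other genes of the m6A RNA methylation machinery were examined in mouse liver after knockdown of the small nucleolar RNA SNORA73. The set holds 10 of the 53028 genes in the table, measured in 20 libraries. It was put together by function from the writers (Virma, Mettl3, Mettl14, Wtap, Zc3h13, Cbll1, Rbm15 and Rbm15b) and the erasers (Alkbh5 and Fto). Virma was chosen by its total RNA level, which was higher in the SNORA73 LNA group, so its values in that contrast are given as a description without a test. All 10 genes passed the filter on low values in every comparison, and in no library did any of them fall below 28 counts.

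N6-methyladenosine, or m6A, is the most common internal modification of mRNA. METTL3 transfers the methyl group, METTL14 holds the substrate RNA beside it, and a larger set of regulatory proteins, with WTAP as adaptor and VIRMA as scaffold, brings this core to its sites on nascent RNA in the nucleus. FTO and ALKBH5 can remove the mark, and reader proteins that bind it influence splicing, export, translation and decay of the mRNA. In liver the mark has been linked to lipid metabolism and to the daily rhythm of metabolic genes.

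The mice were male C57BL/6J animals from the Jackson Laboratory on a chow diet. They received an LNA, an antisense oligonucleotide carrying locked nucleic acids, against GFP as control or against SNORA73, a box H/ACA snoRNA required for pre-rRNA cleavage. The study's design gives 3 intraperitoneal injections of 3 mg/kg, one every other day from an age of 8 weeks, with livers taken 2 days after the last, whereas the methods for liver polysomes give an age of 10 weeks. The polysome methods also give a tail vein injection of cycloheximide shortly before the mice were killed. Liver lysate of each of 10 mice gave a library of total RNA and a library of RNA from the polysome fractions, in which mRNAs carry several ribosomes. The GFP LNA group comprised mice 1, 2, 3, 8 and 9, and the SNORA73 LNA group comprised mice 4, 6, 10, 11 and 12. The sample labels spell the target Snora37, while the study names SNORA73 throughout.

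Libraries held 20005389 to 42023390 counts in total RNA and 14852951 to 33824659 in polysome RNA. Because poly(A) RNA was selected, Snora73a and Snora73b reached at most 4 counts in any library, and these libraries cannot show how far the snoRNA was depleted. Snhg3, the host transcript of SNORA73, ranged from 3.85 to 5.10 CPM in total RNA of the GFP LNA group and from 3.25 to 7.39 CPM in the SNORA73 LNA group. Hepatocyte markers were abundant in both groups, and their summed level overlapped (37300 to 61700 and 37900 to 62300 CPM in total RNA). In bulk liver, fewer cells of a type and less RNA per cell cannot be told apart.

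The starts of the transcripts are shown because mRNAs that open with an unbroken run of pyrimidines after an initial C, the 5′ terminal oligopyrimidine (TOP) mRNAs of ribosomal proteins and translation factors, are loaded onto polysomes under control of mTOR. RefSeq starts on GRCm38.p6 were matched for 8 of the 10 genes, giving 11 starts. No start was matched for Virma or Mettl14, so what follows does not cover them. Each sequence runs from 10 bases before the annotated start to the twentieth base of the transcript, on the strand of the gene, and the capitals mark the first 5 transcribed bases. The genes shown had the highest and lowest polysome-to-total ratios or the largest difference between the groups in total RNA apart from Virma.
Zc3h13, chr14:75284356-75284385, plus strand: cgcgacttccGTCGGcttttagatgctgcc
Mettl3, chr14:52305105-52305134, minus strand: ttcgccaaccGGAAGtggcttttcatcttg
Cbll1, chr12:31499597-31499626, minus strand: cgcctctgcgCTCCGgaaggtagggcgcag
Rbm15b, chr9:106887056-106887085, minus strand: ccgccgcgccGAGTCcttttgtccaagatg
A run of at least 5 pyrimidines (C or T) that began with a C at the start was found at 0 of the 11 starts, compared with 823 of 32851 starts of all genes (2.51%). Cbll1 came nearest, with a C and 3 further pyrimidines before a G. These letters describe the annotated starts only and say nothing of where transcription began in these livers.

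Virma was higher in every SNORA73 LNA mouse than in every GFP LNA mouse, in both total and polysome RNA. VIRMA is the scaffold of the regulatory part of the writer and directs methylation toward the stop codon and the region after it. The gene (ENSMUSG00000040720) spans chr4:11485958-11551143 on GRCm38.p6, and its length of 65186 bp lay at percentile 80.1 of 12431 genes with a length. In total RNA of the GFP LNA mice 1, 2, 3, 8 and 9, Virma was measured at 7.58, 8.30, 8.53, 9.27 and 11.1 CPM (counts scaled to library size with TMM factors). In total RNA of the SNORA73 LNA mice 4, 6, 10, 11 and 12 the values were 15.5, 14.4, 17.1, 17.1 and 14.4 CPM. The highest control, mouse 9, stayed below the lowest SNORA73 LNA mouse. The group means were 8.95 ± 1.33 and 15.7 ± 1.34 CPM (SD, n = 5 each), a log2 fold change of 0.81 (SE 0.11, 95% interval 0.57 to 1.06) or 1.76-fold. This was the contrast by which the gene was chosen.

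In polysome RNA, Virma was measured at 9.53, 10, 7.98, 10.6 and 11.4 CPM in GFP LNA mice 1, 2, 3, 8 and 9. The SNORA73 LNA mice 4, 6, 10, 11 and 12 had 20.1, 17.7, 24.7, 45.3 and 21.6 CPM. The groups again did not overlap, as in 2.14% of the 13060 genes tested in that direction, and mouse 11 stood well above the other 4. The means were 9.92 ± 1.29 and 25.9 ± 11.2 CPM (SD, n = 5 each), and the log2 fold change was 1.39 (SE 0.23, 95% interval 0.89 to 1.89), or 2.61-fold. Across the 13060 genes tested in polysome RNA this value lay at percentile 99.5. With edgeR's quasi-likelihood test its adjusted p was 0.0649 (unadjusted p = 4.24e-05), so Virma did not pass the threshold of 0.05, which 2 genes (0.0153%) passed. The polysome libraries took no part in the choice of Virma, but they came from the same livers as the total RNA.

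The size of the Virma difference in polysome RNA depended in part on mouse 11. Without this mouse the log2 fold change was 1.10 (SE 0.14), and the adjusted p with edgeR was 0.024. With all 10 mice, DESeq2 gave 1.39 with an adjusted p of 2.17e-05, a threshold that 281 genes (2.15%) passed with that tool, and limma-voom gave 1.32 with an adjusted p of 0.0717 (0.0153% of genes called). Without a filter on low counts edgeR gave an adjusted p of 0.00343 (72 genes or 0.278% called), and with a CPM above 1 in every library it gave 0.0434 (31 genes or 0.303% called). Virma passed in 3 of 7 alternative settings of tool, scaling, filter or mice, with adjusted p values up to 0.106. When each mouse was left out in turn it passed in 1 of 10 edgeR fits, with adjusted p values up to 0.227.

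**Figure D1:**
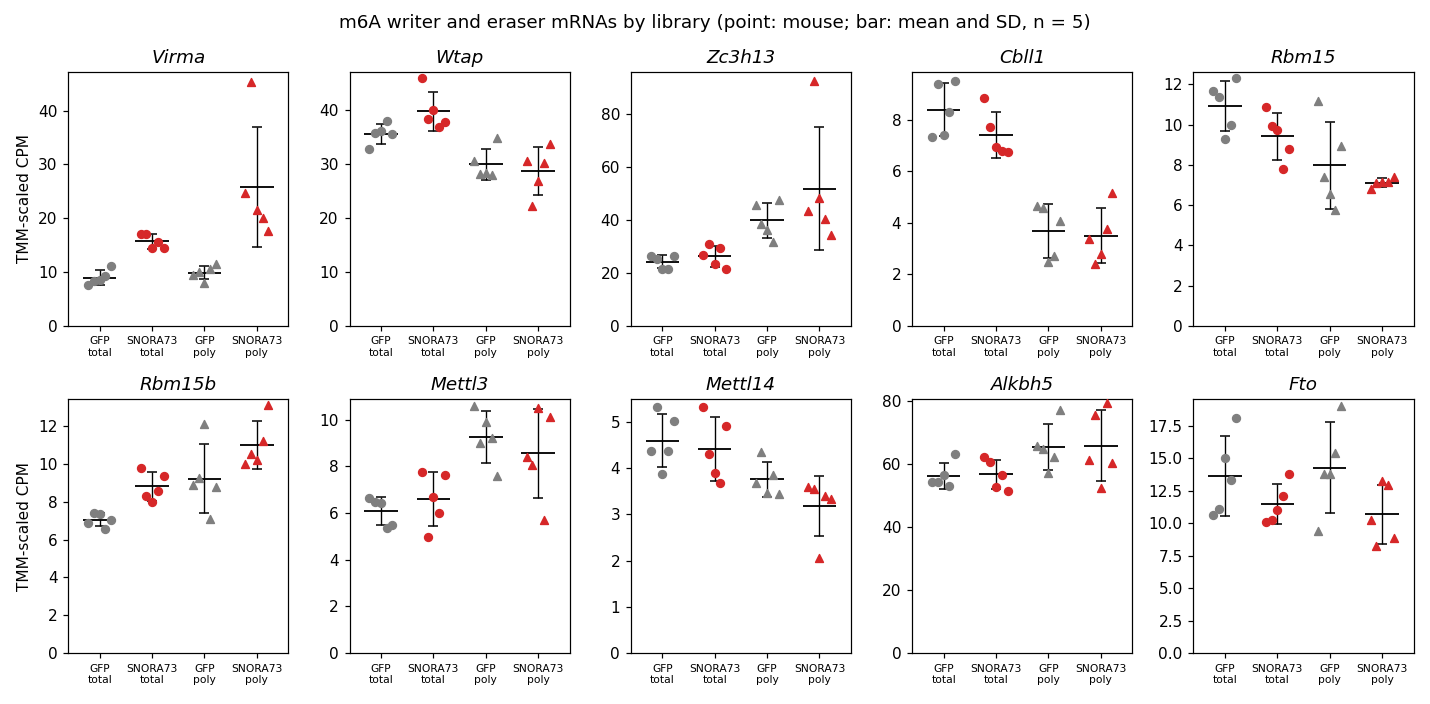
TMM-scaled CPM (linear axis from 0) of the 10 genes in each library, with total RNA as circles, polysome RNA as triangles, GFP LNA in grey and SNORA73 LNA in red, and with mean and SD of 5 mice as bars. Virma lay at 7.58 to 11.1 CPM in GFP LNA total RNA and 14.4 to 17.1 CPM in SNORA73 LNA total RNA, and a single SNORA73 LNA mouse reached 45.3 CPM in polysome RNA.

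Relative to its partners in the same library, Virma was also higher in the SNORA73 LNA group. Its log2 CPM minus the mean log2 CPM of the 7 other writers, a quantity on the log2 scale within a library, ranged from −0.48 to −0.01 in total RNA of the GFP LNA group and from 0.42 to 0.67 in the SNORA73 LNA group. In polysome RNA it ranged from −0.26 to 0.30 in the GFP LNA group and from 0.68 to 2.15 in the SNORA73 LNA group. The total RNA values repeat the contrast by which Virma was chosen.

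Transcripts of the nucleus and of endothelial cells are given beside Virma. Malat1, a long noncoding RNA retained in the nucleus, was measured at 385 to 555 CPM in GFP LNA total RNA and 396 to 1020 CPM in SNORA73 LNA total RNA (log2 fold change 0.62, SE 0.22, adjusted p = 0.443 with edgeR). In polysome RNA it was at 89.2 to 145 CPM in the GFP LNA group and 216 to 1400 CPM in the SNORA73 LNA group, without overlap (log2 fold change 2.29, SE 0.46, adjusted p = 0.0857 with edgeR). In that direction 2.14% of all genes did not overlap. The highest Malat1 value and the highest Virma value in polysome RNA both belonged to mouse 11. Without that mouse the Malat1 difference was 1.5 (log2), and edgeR gave it an adjusted p of 0.0394.

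Neat1, another nuclear RNA, had the opposite sign in total RNA, with a log2 fold change of −0.68 (SE 0.27, adjusted p = 0.502 with edgeR), and gave −0.12 in polysome RNA (adjusted p = 0.859). The mitochondrially encoded share of counts was 11.2 to 15.4% in GFP LNA and 11.6 to 13.2% in SNORA73 LNA total RNA, and 2.06 to 3.05% and 1.76 to 3.89% in polysome RNA. Both ranges overlapped between the groups.

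Of 8 markers of liver sinusoidal endothelial cells, 7 had a positive log2 fold change in total RNA and 8 in polysome RNA. Of all genes, 51.7% and 48.6% were positive. Their summed level was 156 to 194 CPM in GFP LNA and 191 to 217 CPM in SNORA73 LNA total RNA, and 122 to 139 and 155 to 178 CPM in polysome RNA, where the groups did not overlap. The scavenger receptor gene Stab2 passed the test in total RNA, at 4.41 to 8.03 CPM in the GFP LNA group and 10.2 to 14.1 CPM in the SNORA73 LNA group (log2 fold change 1.06, SE 0.15, adjusted p = 0.0497 with edgeR). Of all genes, 0.0303% passed there. None of the 8 markers was at 0 in either group. Summed markers of Kupffer cells, stellate cells, cholangiocytes, lymphocytes and erythroid cells overlapped between the groups in both RNAs. Over the 10 mice, r of Virma with summed Malat1 and Neat1 on the log2 scale was 0.69 in total and 0.93 in polysome RNA. With the summed endothelial markers r was 0.91 and 0.9. These values include the difference between the groups and carry no test. The part of nuclear RNA and of endothelial cells in the Virma difference was not tested.

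**Figure D2:**
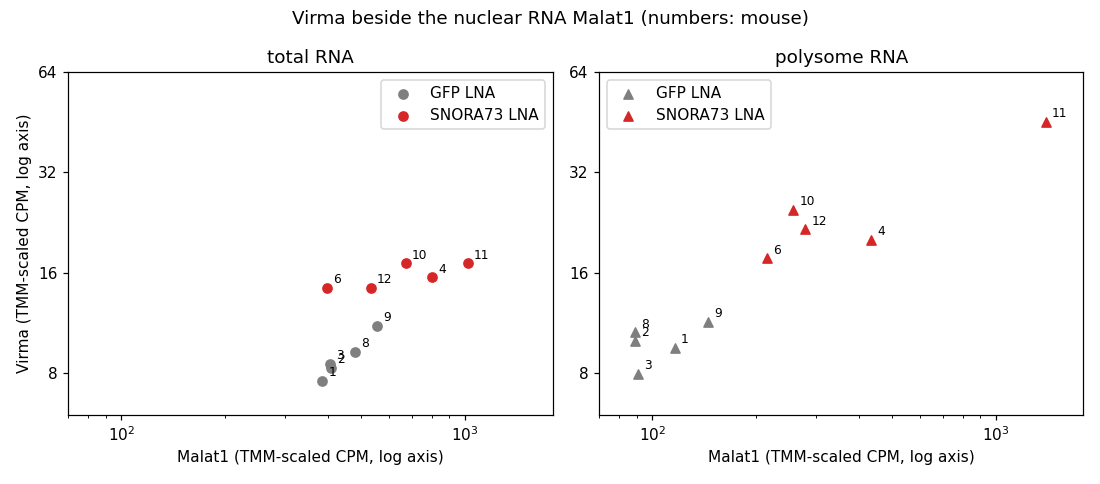
Virma against Malat1 in total RNA (left) and polysome RNA (right), both axes in TMM-scaled CPM on a log scale, with 1 point per mouse labelled by its number. In polysome RNA mouse 11 lies at 1400 CPM of Malat1 and 45.3 CPM of Virma. Malat1 overlaps between the groups in total RNA but not in polysome RNA, and Virma overlaps in neither.

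The other 7 writers showed no call between the groups. None of the 9 genes other than Virma passed an adjusted p of 0.05 in total RNA with edgeR, limma-voom or DESeq2, against a background of 0.0303% of genes with edgeR (4 of 13195), 0.0379% with limma-voom and 0.568% with DESeq2. At an unadjusted p under 0.05 there was 1 of the 9, Rbm15b, compared with 1141 of all genes tested (8.65%). The median log2 fold change of the 9 was 0.01, the same as the median of all genes, with 5 positive and 4 negative values where 51.7% of all genes were positive. In polysome RNA 0 of the 9 passed with edgeR, limma-voom or DESeq2, and 0 had an unadjusted p under 0.05 with edgeR, where 13.4% of all genes did. Their median there was −0.07 with 3 positive values, beside −0.01 over all genes, of which 48.6% were positive.

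The catalytic pair did not pass the test in either RNA. Mettl3, the methyltransferase, was measured at 5.38 to 6.66 CPM in the GFP LNA group and 4.96 to 7.74 CPM in the SNORA73 LNA group (log2 fold change 0.12, 95% interval −0.17 to 0.41, adjusted p = 0.859 with edgeR). Mettl14, its RNA-binding partner, was at 3.88 to 5.32 and 3.67 to 5.33 CPM (log2 fold change −0.05, 95% interval −0.36 to 0.25, adjusted p = 0.944 with edgeR). Both intervals lay below that of Virma, which was chosen for its rise in this contrast, so this is a description only. In polysome RNA the log2 fold change was −0.11 for Mettl3 (95% interval −0.52 to 0.29) and −0.23 for Mettl14 (95% interval −0.63 to 0.17). Mettl14 in polysome RNA of SNORA73 LNA mouse 12 was low at 2.05 CPM, beside 3.33 to 3.59 CPM in the other 4 mice.

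Rbm15b binds RNA and recruits the writer to U-rich sites. Apart from Virma, it was the one member whose groups did not overlap in total RNA on TMM-scaled CPM. It was measured at 6.87, 7.40, 7.34, 6.56 and 7.05 CPM in GFP LNA mice 1, 2, 3, 8 and 9. The SNORA73 LNA mice 4, 6, 10, 11 and 12 had 8.57, 9.37, 9.80, 8.31 and 8.00 CPM. All 5 treated mice were thus above all 5 controls, a pattern that 153 of 13195 genes (1.16%) showed in that direction. The log2 fold change was 0.32 (SE 0.093, 95% interval 0.12 to 0.52, unadjusted p = 0.00448), and its adjusted p of 0.357 with edgeR was far from the threshold. The log2 fold change ranged from 0.28 to 0.36 when each mouse was left out in turn. With libraries scaled by their totals alone it was lower, at 0.17 (SE 0.096, adjusted p = 0.388 with edgeR). The TMM factors behind the separation were 1.03 to 1.07 in the GFP LNA group and 0.882 to 0.998 in the SNORA73 LNA group. In polysome RNA the groups overlapped, at 7.08 to 12.1 CPM and 9.97 to 13.1 CPM (log2 fold change 0.25, 95% interval −0.11 to 0.61, adjusted p = 0.546 with edgeR).

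Rbm15, the paralog of Rbm15b, had a negative value in total RNA, at 9.31 to 12.3 CPM in the GFP LNA group and 7.82 to 10.9 CPM in the SNORA73 LNA group (log2 fold change −0.21, 95% interval −0.46 to 0.04, adjusted p = 0.659 with edgeR). Its interval did not reach that of Rbm15b, but the difference between the paralogs was not tested. In polysome RNA Rbm15 gave −0.16 (95% interval −0.57 to 0.24).

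Zc3h13, which keeps the writer in the nucleus, overlapped between the groups in total RNA, at 21.4 to 26.4 and 21.4 to 30.8 CPM (log2 fold change 0.12, 95% interval −0.13 to 0.37, adjusted p = 0.823 with edgeR). In polysome RNA the GFP LNA mice 1, 2, 3, 8 and 9 had 45.7, 38.3, 36.0, 31.5 and 47.5 CPM, and the SNORA73 LNA mice 4, 6, 10, 11 and 12 had 40.3, 34.4, 43.2, 92.3 and 48.4 CPM. Mouse 11, the library with the highest Malat1 and Virma, was again far above the rest. The polysome log2 fold change of 0.38 (95% interval −0.14 to 0.89, adjusted p = 0.527 with edgeR) was 0.08 without mouse 11.

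Wtap, the adaptor between the catalytic pair and the other subunits, was at 32.8 to 38.0 CPM in GFP LNA and 36.8 to 45.9 CPM in SNORA73 LNA total RNA (log2 fold change 0.16, 95% interval −0.02 to 0.34, adjusted p = 0.654 with edgeR). Its value in polysome RNA was −0.06 (95% interval −0.34 to 0.22). Cbll1, the ubiquitin ligase HAKAI that belongs to the regulatory part of the writer, was at 7.34 to 9.51 and 6.74 to 8.85 CPM in total RNA (log2 fold change −0.18, 95% interval −0.44 to 0.08, adjusted p = 0.732 with edgeR). In polysome RNA it gave −0.07 with a wide interval (−0.62 to 0.47).

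Neither eraser passed the test. Alkbh5, the nuclear m6A demethylase, was at 52.9 to 63.2 CPM in GFP LNA total RNA and 51.5 to 62.1 CPM in SNORA73 LNA total RNA, with a log2 fold change of 0.01 (95% interval −0.18 to 0.21, adjusted p = 0.99 with edgeR). Its sign was not stable and was −0.13 when libraries were scaled by their totals alone. The polysome value was 0.01 as well (95% interval −0.29 to 0.31), and −0.14 under that scaling. Both intervals lay below the estimates of Virma, a description only, since Virma was chosen for its rise in total RNA.

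Fto, the demethylase that also acts on the modified base beside the mRNA cap, had negative values in both RNAs. It was at 10.6 to 18.1 and 10.1 to 13.8 CPM in total RNA (log2 fold change −0.25, 95% interval −0.58 to 0.08, adjusted p = 0.712 with edgeR). In polysome RNA the GFP LNA mice 1, 2, 3, 8 and 9 had 9.36, 13.8, 13.8, 15.4 and 19 CPM and the SNORA73 LNA mice 4, 6, 10, 11 and 12 had 12.9, 8.89, 10.2, 8.24 and 13.2 CPM. The groups overlapped through the low control of mouse 1. The log2 fold change was −0.42 (95% interval −0.85 to 0.01, adjusted p = 0.383 with edgeR), the lowest of the 10 genes in polysome RNA.

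**Figure D3:**
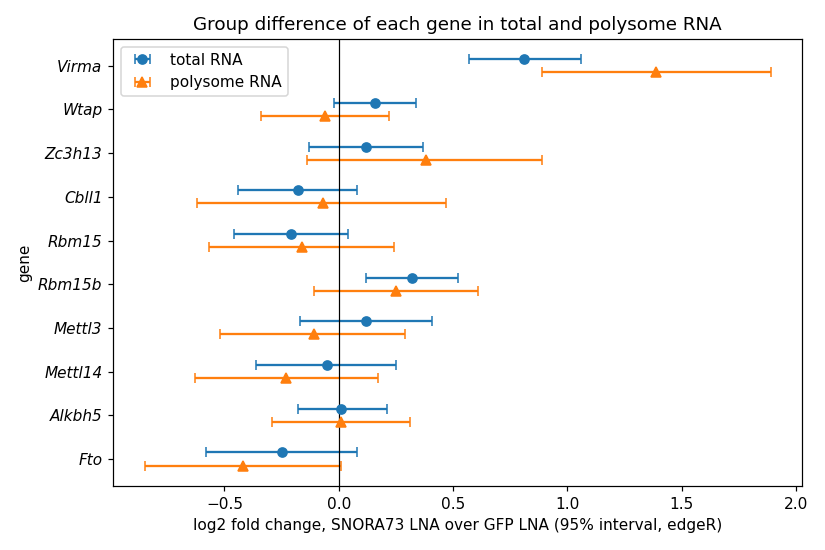
Log2 fold change of SNORA73 LNA over GFP LNA for each gene with its 95% interval from edgeR, in total RNA (blue circles) and polysome RNA (orange triangles). Virma stands at 0.81 and 1.39, and the other values lie between −0.42 and 0.38.

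The polysome-to-total ratio asks how an mRNA's representation in the polysome fractions relates to its level in the same liver. In GFP LNA livers the writer genes lay on both sides of 0. With edgeR, 2 of the 10 genes were higher in polysome RNA and 4 were lower, against a background of 24.7% of 13283 genes higher and 24% lower, so calls of this kind were common among all genes. Ratios are relative to all mRNAs in the fraction and are not an absolute ribosome load.

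Zc3h13 was the highest, with a log2 ratio in GFP LNA livers of 0.67 (SE 0.12, adjusted p = 0.000653 with edgeR), and Mettl3 followed at 0.56 (SE 0.13, adjusted p = 0.00291). Both were at higher CPM in all 5 polysome libraries than in all 5 total libraries, as were 18.5% of all genes. Cbll1 was the lowest at −1.23 (SE 0.20, adjusted p = 0.000263 with edgeR), at percentile 5.24 of all genes and again without overlap, as in 17.6% of all genes in that direction. Rbm15 at −0.50 (adjusted p = 0.0282), Mettl14 at −0.34 (adjusted p = 0.0493) and Wtap at −0.30 (adjusted p = 0.0102) were lower in polysome RNA with edgeR. Mettl14 no longer passed when any 1 of the 5 mice was left out. Rbm15 then passed in 1 of 5 such fits and Wtap in 3 of 5, while Mettl3, Zc3h13 and Cbll1 passed in all 5. None of these fits paired the libraries of a mouse. With all mice and the mouse as a replicate block, edgeR also called Rbm15, Mettl14 and Wtap, beside 63% of all genes. Leaving out mice was not run with the block.

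Virma had a log2 ratio of 0.10 (SE 0.13) in GFP LNA livers, and Fto of 0.02 (SE 0.18, adjusted p = 0.935 with edgeR). Rbm15b at 0.34 (adjusted p = 0.0556) and Alkbh5 at 0.17 (adjusted p = 0.138) did not pass without the pairing by mouse. In the model with the mouse as a replicate block, edgeR called them at 0.33 (adjusted p = 0.0199) and 0.17 (adjusted p = 0.0394), beside 63% of all genes.

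In every GFP LNA mouse the ratio of Mettl3 was above 0 and that of Mettl14 below 0. The log2 ratio of Mettl3 exceeded that of Mettl14 in 10 of 10 mice, by 0.75 to 0.99 in the GFP LNA group (mean 0.88 ± 0.11, SD, n = 5) and by 0.03 to 1.54 in the SNORA73 LNA group (mean 0.83 ± 0.55, SD, n = 5). In SNORA73 LNA mouse 4 both were below 0, at −0.11 for Mettl3 and −0.14 for Mettl14.

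**Figure D4:**
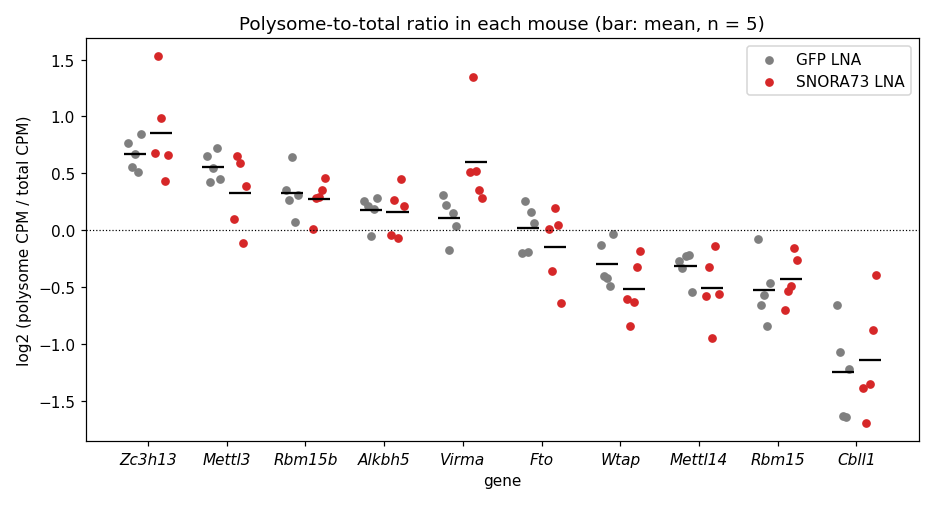
Log2 of polysome CPM over total CPM in each mouse for each gene, ordered by the GFP LNA mean, with the mean of 5 mice as a bar. Cbll1 is lowest, between −1.64 and −0.66 in GFP LNA mice, and Virma reaches 1.35 in 1 SNORA73 LNA mouse.

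Whether the group difference in polysome RNA differed from that in total RNA was tested as an interaction over all 20 libraries. The main model did not pair the libraries of a mouse. None of the 9 genes other than Virma passed with edgeR, limma-voom or DESeq2, and 0 had an unadjusted p under 0.05 with edgeR. Among all 13795 genes 1 was called with edgeR (0.00725%), 0 with limma-voom and 7 with DESeq2 (0.0507%), and 2.91% had an unadjusted p under 0.05. Estimates of the 9 lay between −0.23 (Mettl3) and 0.25 (Zc3h13), and that of Zc3h13 was 0.01 without mouse 11. With the mouse as a replicate block in edgeR, 0 of the 9 passed, beside 0.00725% of all genes.

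As a description, the interaction of Virma was 0.58 (SE 0.27, 95% interval 0.02 to 1.14) without pairing by mouse. With the mouse as a replicate block, Virma gave 0.50. Its log2 ratio was 0.31, 0.22, −0.17, 0.15 and 0.04 in GFP LNA mice 1, 2, 3, 8 and 9. In SNORA73 LNA mice 4, 6, 10, 11 and 12 it was 0.35, 0.28, 0.51, 1.35 and 0.52. All 5 values of the SNORA73 LNA group were above 0, but the lowest lay below the highest control value. Without mouse 11 the interaction was 0.31 (SE 0.18).

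Across the 10 mice the level of Virma in polysome RNA followed its level in total RNA, with r = 0.91 and rho = 0.94 on log2 CPM (r = 0.92 without the 2 mice farthest from the median). These points fall into the 2 treatment groups, so the value largely restates the group difference and carries no test. The same correlation was 0.74 for Zc3h13 and 0.68 for Rbm15b, but −0.14 for Wtap and 0.07 for Cbll1, whose total and polysome levels did not vary together.

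Pairs of members were compared as a description. Over the 45 pairs among the 10 genes the median r of log2 CPM was 0.11 in total RNA (range −0.44 to 0.83) and −0.03 in polysome RNA (range −0.80 to 0.71), each over 10 libraries and without a test. The highest value in total RNA was that of Virma with Rbm15b, the pair whose treatment groups did not overlap on TMM-scaled CPM. In polysome RNA Virma with Zc3h13 reached 0.71, and both were highest in mouse 11.

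The genes whose total RNA pattern was most like that of Virma were taken by Pearson r over the 10 total RNA libraries among 8281 genes. The 5 nearest were Ext1 (r = 0.97), a heparan sulfate polymerase, Ptprk (r = 0.96), a receptor tyrosine phosphatase, the pseudogene Gm5641 (r = 0.96), and Supt6 (r = 0.96) and Supt5 (r = 0.95), which encode transcription elongation factors. Counts of a pseudogene are uncertain because reads can be shared with its parent gene. In all, 35 genes exceeded r = 0.9. In the polysome libraries, which were not used for the ranking, r with Virma was 0.75 for Ext1, 0.91 for Ptprk, 0.92 for Gm5641, 0.96 for Supt6 and 0.94 for Supt5. Those libraries came from the same livers and groups, so the values are no independent check and carry no test.

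The group differences of these 5 genes are a description, since they were taken for their likeness to a gene chosen by its difference. In total RNA the log2 fold change was 1.04 for Supt5, 0.93 for Gm5641, 0.76 for Supt6, 0.57 for Ptprk and 0.50 for Ext1. In polysome RNA it was 1.08, 0.70, 0.87, 0.63 and 0.46 in the same order. As for Virma, the likeness reflects the difference between the groups as well as the spread within them.

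The wider m6A pathway was taken as a list of 23 genes. It held readers, other N6-methyladenosine methyltransferases and their partners, and enzymes that supply S-adenosylmethionine or remove the product it leaves. Of the 23 genes, 22 were tested in total RNA and 21 in polysome RNA, and 0 passed in either with edgeR or limma-voom. At an unadjusted p under 0.05 there were 2 in total RNA (8.65% of all genes) and 4 in polysome RNA (13.4% of all genes). DESeq2 called 0 in total RNA and 1 in polysome RNA, Ythdc1.

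In total RNA the largest positive value was that of Hnrnpa2b1, an RNA-binding protein that acts as a nuclear reader, at 0.34 on the log2 scale (SE 0.15, adjusted p = 0.558 with edgeR). The largest negative value, that of Igf2bp3, rested on a single control. GFP LNA mouse 9 was at 5.03 CPM, beside 0.293 to 0.606 CPM in the other 4 GFP LNA mice and 0.266 to 0.601 CPM in the SNORA73 LNA mice (log2 fold change −1.69, 95% interval −3.36 to −0.03, adjusted p = 0.563 with edgeR). Without mouse 9 the gene did not pass the filter on low values. The median over the 22 genes was 0.04.

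In polysome RNA the largest positive value was that of Ythdc1, the nuclear YTH-domain reader that acts in splicing and export. It was at 63.0, 54.9, 45.5, 47.2 and 66.1 CPM in GFP LNA mice 1, 2, 3, 8 and 9, and at 82.1, 79.3, 89.9, 163 and 82.6 CPM in SNORA73 LNA mice 4, 6, 10, 11 and 12. The groups did not overlap, as in 279 of 13060 genes (2.14%) in that direction, and mouse 11 was again the highest. The log2 fold change was 0.84 (SE 0.21, adjusted p = 0.139 with edgeR, 0.0104 with DESeq2) and 0.61 without mouse 11. In total RNA Ythdc1 gave 0.23 (adjusted p = 0.637 with edgeR). The largest negative value was that of Ythdc2, a helicase with a YTH domain, at −0.76 (SE 0.64, adjusted p = 0.649 with edgeR). Of 11 readers tested in polysome RNA, 8 had positive values, where 48.6% of all genes did.

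**Figure D5:**
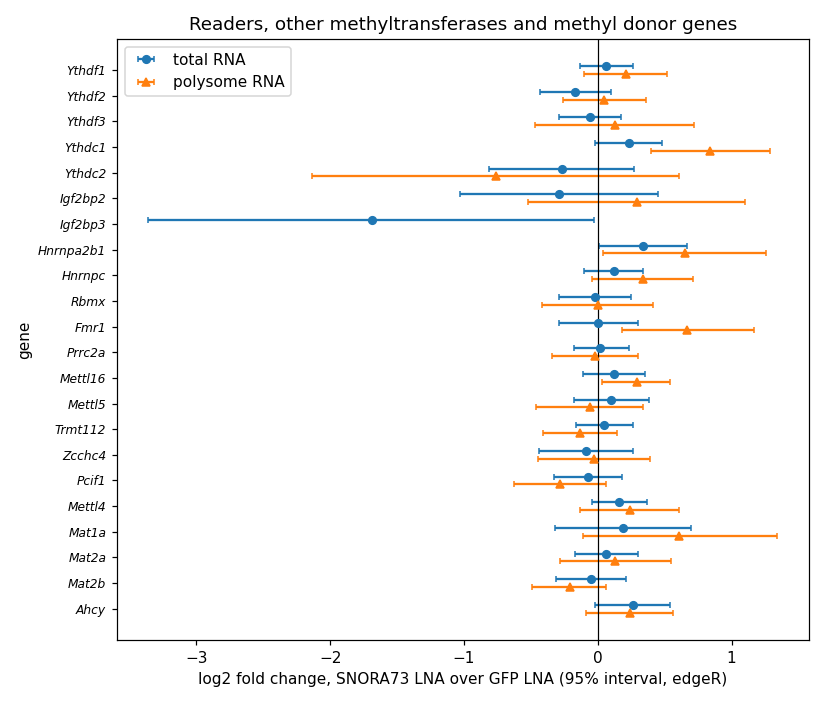
Log2 fold change of SNORA73 LNA over GFP LNA with 95% intervals from edgeR for the readers, other methyltransferases and methyl donor genes, in total RNA (blue circles) and polysome RNA (orange triangles). Most intervals include 0, Ythdc1 stands at 0.84 in polysome RNA, and Igf2bp3 at −1.69, which rests on GFP LNA mouse 9, has the widest interval.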

How the data were processed

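Livers of 10 mice, 5 per LNA group, gave 20 libraries, 1 of total and 1 of polysome RNA per mouse. Per the study's methods, poly(A)-selected libraries were sequenced as paired 100 bp reads, trimmed with fastp at a Phred quality of at least 15, cleared of rRNA reads with bowtie, and quantified with kallisto 0.46.2 against the Ensembl 102 transcriptome. The authors deposited estimated counts per gene from tximport, before any normalization. kallisto divides reads among compatible transcripts, so counts of pseudogenes and close paralogs are uncertain. Whether its strand option was set is not given in the sources used here. The total and polysome libraries carried the mouse number, and 0 columns were without a sample.

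The estimated counts, of which 14.3% were not whole, were rounded. Symbols were found for 51903 of 53028 genes, and genes without one held at most 2.99% of the counts of a library. The filter kept genes whose CPM exceeded 0.5 in 4 or more libraries of a fit. After TMM normalization, edgeR 4.0.16 (R 4.3.3) gave quasi-likelihood tests of each difference, with Benjamini-Hochberg adjustment over all genes and a threshold of 0.05. Total RNA, polysome RNA, the interaction over 20 libraries, and polysome against total RNA in the 5 GFP LNA mice were fitted apart. CPM are TMM-scaled within each RNA. Positions, lengths and start sequences came from RefSeq on GRCm38.p6. Correlations used log2 CPM with a prior count of 2.

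Total and polysome libraries of a mouse come from 1 liver, which pairs them. Deviations from the group means correlated within every mouse (r = 0.13 to 0.59), and in 8 of 10 mice the own partner was the closest. Alternatives were limma-voom (limma 3.58.1), DESeq2 1.42.0, DESeq2 size factors, library totals alone, 2 other filters, leaving out each mouse, leaving out mice 9 and 10 together, and the mouse as a replicate block. The study used 4 mice per group without naming those excluded. An earlier analysis of these data pointed to mice 9 and 10, but whether these are the mice the study excluded is not known. All 10 mice were used here. The methods were tested on simulated data. The named genes are the 10 members, the 5 nearest patterns, and the pathway genes called or with the largest rise or fall in each RNA. Members and lists were chosen with earlier results of these data known. Depth is given with the libraries, and member counts ranged from 28 to 2520 per library.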

Additional observations from a re-analysis of the deposited data

Results flagged for a closer look

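In 3 of the 40 sets of 5 values tested (10 genes in 4 groups), 1 mouse stood apart by Dixon's criterion, which chance meets in about 1 of 20 such sets. All 3 were in polysome RNA of the SNORA73 LNA group. Virma was at 45.3 CPM in mouse 11, beside 17.7 to 24.7 CPM in the other 4 mice. Zc3h13 was at 92.3 CPM in the same mouse, beside 34.4 to 48.4 CPM. Mettl14 was at 2.05 CPM in mouse 12, beside 3.33 to 3.59 CPM. The Malat1 level of mouse 11 in polysome RNA was 1400 CPM, beside 216 to 434 CPM in the other SNORA73 LNA mice, and its part in these values was not tested.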

How the results depend on the processing

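Directions and calls of members other than those named here or with the polysome-to-total ratios were unchanged under the alternatives run. In total RNA, genes called numbered 4 with edgeR, 75 with DESeq2, 2 with library totals alone, 13 without a filter, 2 at CPM above 1 in every library, 97 without mice 9 and 10, and 1 to 59 leaving out each mouse (59 without mouse 9). In polysome RNA they numbered 2, then 281, 0, 72, 31, 31 and 0 to 17 (17 without mouse 9). For the interaction they numbered 1, then 0 with limma-voom, 7 with DESeq2, 0 at CPM above 1, 0 without mice 9 and 10, and 1 to 2 leaving out each mouse. The cause was not tested. Of the 10 members in polysome RNA, 0 were called with edgeR and 1, Virma, with DESeq2, without a filter and at CPM above 1 (adjusted p = 2.17e-05, 0.00343 and 0.0434), and 0 to 1 leaving out each mouse. The log2 fold change of Virma in polysome RNA was 1.21 to 1.46 under the alternatives and 1.1 to 1.5 leaving out each mouse (adjusted p = 0.024 to 0.227). In total RNA it was 0.67 to 0.87, and 0.75 to 0.89.

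Library totals alone moved the median of all genes to −0.14 in total and −0.17 in polysome RNA. With them Mettl3 (−0.03), Zc3h13 (−0.02) and Alkbh5 (−0.13) turned negative in total RNA, and Alkbh5 (−0.14) in polysome RNA. Alkbh5 was −0.01 without a filter in both RNAs and 0.00 with limma-voom in polysome RNA. In the interaction Alkbh5 was 0.01 with DESeq2 and with its size factors, and 0.09 without mice 9 and 10, where Rbm15b was 0.01. Leaving out each mouse, the sign changed for Mettl14 (−0.13 to 0.00) and Alkbh5 (−0.02 to 0.05) in total RNA, for Mettl3 (−0.19 to 0.00), Wtap (−0.12 to 0.04), Cbll1 (−0.26 to 0.05) and Alkbh5 (−0.07 to 0.08) in polysome RNA, and for Cbll1 (−0.12 to 0.26), Rbm15 (−0.02 to 0.18), Rbm15b (−0.12 to 0.03) and Alkbh5 (−0.08 to 0.06) in the interaction.

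For polysome against total RNA in GFP LNA livers, the fits leaving out each mouse did not use the replicate block. They called 5380 to 6156 genes and 3 to 5 members (6 with all mice). Fto was −0.02 without a filter, −0.03 at CPM above 1 and −0.03 to 0.06 leaving out each mouse. Mettl14 lost its call with limma-voom, library totals and no filter, and Rbm15b gained one with limma-voom, DESeq2 and library totals and without mouse 8. With the replicate block 8 members were called, and the interaction of Virma was 0.50 with the block beside 0.58 without. The block changed no call of a member besides Rbm15b and Alkbh5. Member counts were as low as 28 in a library.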

Other observations

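The wider m6A list in GFP LNA livers spread across the polysome-to-total ratio. With edgeR, 6 of 22 genes tested were higher in polysome RNA and 9 lower, beside 24.7% and 24% of all genes. The cytoplasmic YTH readers were all lower, with log2 ratios of −0.47 for Ythdf1 (SE 0.08, adjusted p = 0.000423 with edgeR), −0.55 for Ythdf2 (SE 0.15, adjusted p = 0.0101) and −1.78 for Ythdf3 (SE 0.076, adjusted p = 1.36e-07). The nuclear reader Ythdc1 was higher at 0.41 (SE 0.13, adjusted p = 0.0178 with edgeR). Trmt112, the small partner that stabilizes the 18S rRNA methyltransferase METTL5, had the highest value at 1.16 (SE 0.08, adjusted p = 7.15e-07 with edgeR), and Mettl5 itself was at 0.34 (SE 0.13, adjusted p = 0.0492). Among the genes for the methyl donor, Mat2a and Mat2b, the catalytic and regulatory subunits of the widely expressed S-adenosylmethionine synthetase, were lower at −0.99 (SE 0.093, adjusted p = 5.02e-06 with edgeR) and −0.61 (SE 0.088, adjusted p = 0.000126). Mat1a, the form of differentiated hepatocytes, was at 0.66 (SE 0.26, adjusted p = 0.0514 with edgeR) and did not pass without the pairing by mouse. With the mouse as a replicate block it was 0.68 (SE 0.065, adjusted p = 2.21e-06 with edgeR), and the block also added calls for Hnrnpc at 0.21 (adjusted p = 0.0202) and Ahcy at 0.16 (adjusted p = 0.0244). Also called with edgeR without the block were Hnrnpa2b1 (0.61), the cap methyltransferase gene Pcif1 (0.58) and Prrc2a (0.39) among the higher, and Ythdc2 (−1.59), Fmr1 (−1.1), Igf2bp2 (−1) and Mettl4 (−0.79) among the lower. Mat1a, Hnrnpc and Ahcy were named after their values were seen.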
